A study of Mus musculus with 6 samples.

Results

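The genes of MHC class II antigen presentation, together with 3 genes used as marks of dendritic cells, were measured in CD8+ T cell samples from mouse spleen and lymph nodes. The 10 genes were taken as a named list and matched by symbol, and all 10 were found among the 55414 genes of the deposited table. They are Ciita, H2-Aa, H2-Ab1, H2-Eb1, Cd74, H2-DMa and H2-DMb1 on the class II side, and Cd209a, Flt3 and Siglech on the dendritic side. The samples were 6 poly(A) RNA libraries in 3 groups of 2. All came from OT-I mice, whose CD8+ T cells carry a transgenic receptor for an ovalbumin peptide presented by a class I molecule. N4 cells were taken 4 days after the N4 peptide, the ovalbumin peptide itself, and T4 cells 4 days after the T4 peptide, a variant that binds the receptor more weakly. Antibodies to OX40 and 4-1BB, receptors that costimulate T cells, were given with either peptide, and the third group is labelled only as naive. The sample labels name spleen and lymph nodes as the tissue of all groups, while the series text names only spleens. The labels do not say whether the libraries of a group came from separate mice, so the p-values measure only the spread between libraries, which may be technical.

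MHC class II molecules are pairs of an alpha and a beta chain that display peptides from endocytosed proteins to CD4+ T cells. Dendritic cells, B cells and macrophages make them constitutively, and mouse T cells are known to make little or none. The coactivator CIITA drives the whole group through factors bound to the X and Y boxes of class II promoters, the invariant chain CD74 fills the new peptide groove, and H2-DM helps to exchange the invariant chain fragment for a peptide.

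Library totals ran from 269033066 to 335968843 estimated counts, and levels are given as CPM (counts scaled to a common library total) after scaling by library total and TMM factor. Markers of CD8 T cells were high in every library: the 8 genes of that list summed to 4881 and 6275 CPM in N4 cells, 3922 and 4222 CPM in T4 cells, and 5691 and 7428 CPM in naive cells, and 0 of the 8 passed the test in any of the 3 comparisons by edgeR, with 2 of 8 under an unadjusted p of 0.05 in each and 2, 1 and 1 by DESeq2 in N4 against naive, T4 against naive and N4 against T4 cells. Over all genes, DESeq2 called 6186 of 22111 in N4 against naive and 1997 of 21219 in T4 against naive cells. In N4 against T4 cells it called 5755 of 21665. The naive libraries also held transcripts of other cells and stood apart from each other. A list of 8 neutrophil markers summed to 47.5 and 38.3 CPM in N4 cells, 12.7 and 5.38 CPM in T4 cells, and 2437 and 25247 CPM in naive cells. The second naive library therefore carried the higher neutrophil signal by far.

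Promoter windows of 300 bases (250 before to 50 after the annotated start) were available for 7 of the 10 genes, and are RefSeq sequence on GRCm38.p6. The class II windows were searched on both strands for an X box core (AAC, any 3 bases written NNN, then TGATG), a Y box core (TGATTGG) and a cyclic AMP response element (CRE, TGACGTCA). Shown are 100 bases, from 125 to 26 before the start. First come H2-Aa, H2-Eb1 and the related class II genes H2-Ob and H2-DMb2, which hold these motifs in the same order. A window of H2-DMa, which holds none, follows. Capitals mark the motifs, and each sequence runs 5′ to 3′ on the strand of the gene.
H2-Aa, chr17:34287849-34287948, minus strand: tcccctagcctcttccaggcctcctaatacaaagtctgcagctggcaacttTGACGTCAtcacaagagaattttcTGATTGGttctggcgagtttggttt
H2-Eb1, chr17:34305742-34305841, plus strand: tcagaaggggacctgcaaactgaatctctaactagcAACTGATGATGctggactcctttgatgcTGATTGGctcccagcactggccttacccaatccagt
H2-Ob, chr17:34238780-34238879, plus strand: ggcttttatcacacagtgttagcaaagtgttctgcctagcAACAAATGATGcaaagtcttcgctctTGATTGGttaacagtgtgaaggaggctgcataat
H2-DMb2, chr17:34145124-34145223, plus strand: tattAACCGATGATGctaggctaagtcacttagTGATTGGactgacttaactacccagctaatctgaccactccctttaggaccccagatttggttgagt
H2-DMa, chr17:34122707-34122806, plus strand: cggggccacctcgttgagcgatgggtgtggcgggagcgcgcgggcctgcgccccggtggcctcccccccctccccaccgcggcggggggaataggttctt
In H2-Eb1, H2-Ob and H2-DMb2 the X box core stood upstream of the Y box core with 17, 15 and 18 bases between them. H2-DMb1, whose window overlaps an annotated exon and is not printed, had the same arrangement with 18 bases between. H2-Aa had no match to the X box core, and the CRE stood 16 bases upstream of its Y box core. H2-Oa and H2-Eb2 held a Y box core and neither other motif. Of all 32851 promoter windows, 0.615% held the X box core, 7.82% the Y box core, 1.79% the CRE and 17 windows (0.0518%) both boxes. The motif letters were chosen after the windows were seen, so these shares are no test of the matches. Among the members with a window, 2 of 7 held the X box core, 3 of 7 the Y box core and 1 of 7 the CRE. The windows of Cd209a, Flt3 and Siglech held none of the 3 motifs. A further H2-DMa window, from chr17:34125268, also held none. No window covered the start of a later-starting H2-DMa model, H2-DMa-205, at 34135628, so that promoter was not searched. These matches describe the letters of the windows and were not read as binding sites.

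**Figure D1:**
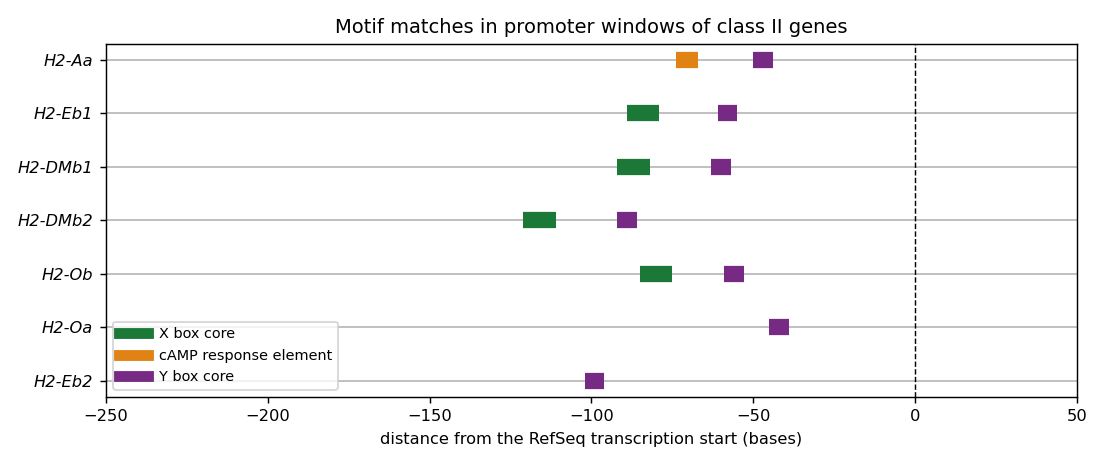
Position of the X box core, the Y box core and the CRE in bases from the annotated start (x axis) in the promoter windows of class II genes (y axis). In H2-Eb1, H2-DMb1, H2-Ob and H2-DMb2 the X box core lies 15 to 18 bases upstream of the Y box core, and in H2-Aa the CRE lies 16 bases upstream of it.

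Class II transcripts were lowest in N4 cells, intermediate in T4 cells and highest in naive cells. The summed level of the 7 class II genes was 99.6 and 72.8 CPM in N4 cells, 710.3 and 693.9 CPM in T4 cells, and 2290 and 1539 CPM in naive cells. The N4 mean was 4.50% and the T4 mean 36.7% of the naive mean, and the sums of the 3 groups did not overlap. All 10 genes passed the filter on low counts. Against naive cells, 8 of the 10 genes fell in N4 cells by edgeR's quasi-likelihood test with Benjamini-Hochberg adjustment at 0.05, where 7.18% of the 23003 genes tested fell. The median log2 fold change of the 10 genes was -4.36 (-4.34 with Siglech, at 0 in N4 cells, placed at its bound), against -0.09 for all genes tested.

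**Figure D2:**
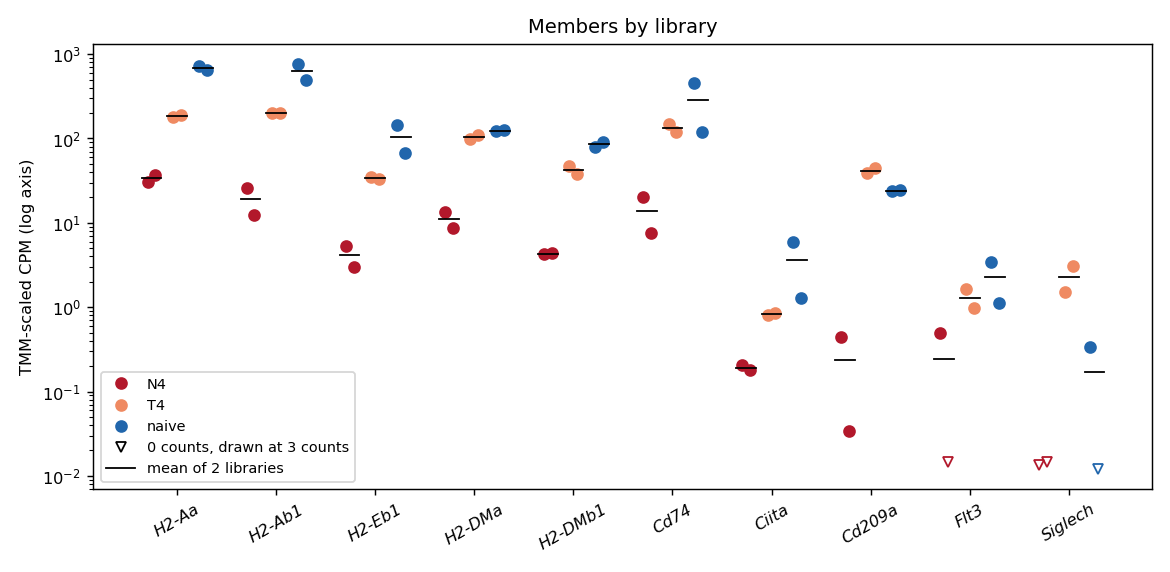
Level of each of the 10 genes in every library (TMM-scaled CPM, log axis), with a point per library for N4, T4 and naive cells, lines at the means and open triangles for libraries at 0, drawn at 3 counts. The 2 N4 points lie below the 2 T4 points for every gene, and below both naive points for every gene except Siglech.

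Ciita, the coactivator on which transcription of class II genes depends (chr16:10480059-10528418, GRCm38), was low throughout. It stood at 0.204 and 0.181 CPM in N4 cells, 0.810 and 0.845 CPM in T4 cells, and 5.98 and 1.30 CPM in naive cells. The groups did not overlap, but the first naive library was 4.61 times the second. Ciita fell in N4 against naive cells with a log2 fold change of -4.24 (SE 0.82, edgeR adjusted p = 0.0288). That call was lost when only the N4 and naive libraries were fitted (edgeR adjusted p = 0.0555) and when either N4 library was left out (edgeR adjusted p = 0.102 and 0.127). Without the first naive library the N4 value against naive cells was -2.88 (edgeR adjusted p = 0.0478), and without the second it was -4.96 (edgeR adjusted p = 0.00544). The T4 value was 22.7% of the naive one, a log2 fold change of -2.14 (SE 0.74, edgeR adjusted p = 0.278), and became -0.74 without the first naive library and -2.86 without the second. N4 against T4 cells gave -2.10 (SE 0.75, edgeR adjusted p = 0.132), and passed without the second naive library (edgeR adjusted p = 0.0196). Ciita overlaps Dexi on the opposite strand, and the library kit does not mark strand, so reads of the overlap cannot be assigned with certainty.

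H2-Aa encodes the alpha chain of the I-A molecule (chr17:34282744-34287823, minus strand) and was the most abundant member per length in N4 and naive cells. It stood at 30.5 and 36.9 CPM in N4 cells, 179 and 189.8 CPM in T4 cells, and 727 and 645 CPM in naive cells. The 3 groups were well apart, and this gene had close replicates in each on this scale. In counts per transcript length before TMM scaling (TPM), the naive libraries were further apart, at 791 and 366. H2-Aa fell in N4 cells with log2 fold changes of -4.35 against naive (SE 0.27, edgeR adjusted p = 0.0071) and -2.45 against T4 cells (SE 0.25, edgeR adjusted p = 0.0156). In T4 against naive cells the difference was -1.89 (SE 0.25, edgeR adjusted p = 0.0623). That last value ran from -2.01 to -1.61 over the alternatives and fell on either side of the threshold. It passed with the replicate number as a block (edgeR adjusted p = 0.0468). It did not pass with library totals alone as the scale (edgeR adjusted p = 0.115) or with only those groups fitted (edgeR adjusted p = 0.116). Against T4 cells the N4 value was -2.32 without the first N4 library and -2.60 without the second.

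H2-Ab1, the beta chain that pairs with H2-Aa (chr17:34257689-34269419, plus strand), had 25.8 and 12.3 CPM in N4 cells, 199.9 and 201.5 CPM in T4 cells, and 759 and 489 CPM in naive cells. It fell in N4 cells with log2 fold changes of -5.03 against naive cells (SE 0.49, edgeR adjusted p = 0.00818) and -3.40 against T4 cells (SE 0.45, edgeR adjusted p = 0.0231). Without the first N4 library the H2-Ab1 values were -5.67 against naive and -4.03 against T4 cells. H2-Eb1, the beta chain of the I-E molecule (chr17:34305867-34316674, plus strand), had 5.25 and 2.96 CPM in N4 cells, 34.5 and 33.3 CPM in T4 cells, and 144 and 66.6 CPM in naive cells. The T4 libraries lay close together while the naive libraries of H2-Eb1 differed 2.16-fold, and no groups overlapped. H2-Eb1 fell in N4 cells with log2 fold changes of -4.68 against naive cells (SE 0.52, edgeR adjusted p = 0.00938) and -3.04 against T4 cells (SE 0.48, edgeR adjusted p = 0.0275). In T4 against naive cells both beta chains had a log2 fold change of -1.64, with edgeR adjusted p = 0.178 for H2-Ab1 and 0.198 for H2-Eb1. H2-Ea, the alpha partner of H2-Eb1, was listed as the pseudogene H2-Ea-ps in the annotation used and did not pass the filter on low counts. It was at 0 in 5 of the 6 libraries and at 0.0491 CPM in the second T4 library.

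Cd74, the invariant chain on chromosome 18, had 20.3 and 7.48 CPM in N4 cells, 149 and 119 CPM in T4 cells, and 451 and 120.0 CPM in naive cells. Its T4 and naive ranges overlapped, since the second naive library lay at the T4 level and 3.76-fold below the first. Cd74 fell in N4 against naive cells with a log2 fold change of -4.36 (SE 0.81, edgeR adjusted p = 0.0262), a call lost without either N4 library (edgeR adjusted p = 0.0584 and 0.103) and with only those groups fitted (edgeR adjusted p = 0.0523). Without the first naive library it was -3.22 (edgeR adjusted p = 0.0355), without the second -5.03 (edgeR adjusted p = 0.0078), and without the first N4 library -5.26. Against T4 cells the N4 value was -3.27 (SE 0.77, edgeR adjusted p = 0.055), which was -4.17 without the first N4 library and passed without the first or the second naive library (edgeR adjusted p = 0.0174 and 0.0131). T4 against naive cells gave -1.09 (SE 0.71, edgeR adjusted p = 0.558), 0.07 without the first naive library and -1.75 without the second. A microRNA gene, Mir5107, lies within Cd74 on the same strand.

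H2-DMa and H2-DMb1 encode the chains of the peptide exchange factor H2-DM. H2-DMa (chr17:34119541-34139101, plus strand) had 13.4 and 8.65 CPM in N4 cells, 98.7 and 111 CPM in T4 cells, and 123 and 125 CPM in naive cells. H2-DMb1 (chr17:34153072-34160230, plus strand) had 4.22 and 4.36 CPM in N4 cells, 47.6 and 37.9 CPM in T4 cells, and 80.3 and 91.9 CPM in naive cells. For both genes all N4 values lay below all T4 values, and on this scale all T4 values lay below all naive ones. H2-DMa in T4 cells was at 84.7% and H2-DMb1 at 49.7% of the naive mean. In TPM, before TMM scaling, the T4 and naive libraries of both genes overlapped. H2-DMa had 89.9 and 92.6 TPM in T4 and 106 and 62.5 TPM in naive cells. H2-DMb1 had 42.9 and 31.1 TPM in T4 and 70.2 and 41.9 TPM in naive cells. H2-DMa fell in N4 cells with log2 fold changes of -3.49 against naive cells (SE 0.31, edgeR adjusted p = 0.00714) and -3.25 against T4 cells (SE 0.30, edgeR adjusted p = 0.0144). H2-DMb1 fell in N4 cells with log2 fold changes of -4.33 against naive cells (SE 0.27, edgeR adjusted p = 0.0071) and -3.32 against T4 cells (SE 0.26, edgeR adjusted p = 0.0127). In T4 against naive cells H2-DMa gave -0.24 (SE 0.28, edgeR adjusted p = 0.785), which became 0.07 with library totals alone as the scale (the median of all genes was then 0.30), and H2-DMb1 gave -1.01 (SE 0.24, edgeR adjusted p = 0.15). H2-DMa overlaps Brd2 on the opposite strand, and H2-DMb1 and H2-DMb2 are close copies, so the counting could split reads between them.

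**Figure D3:**
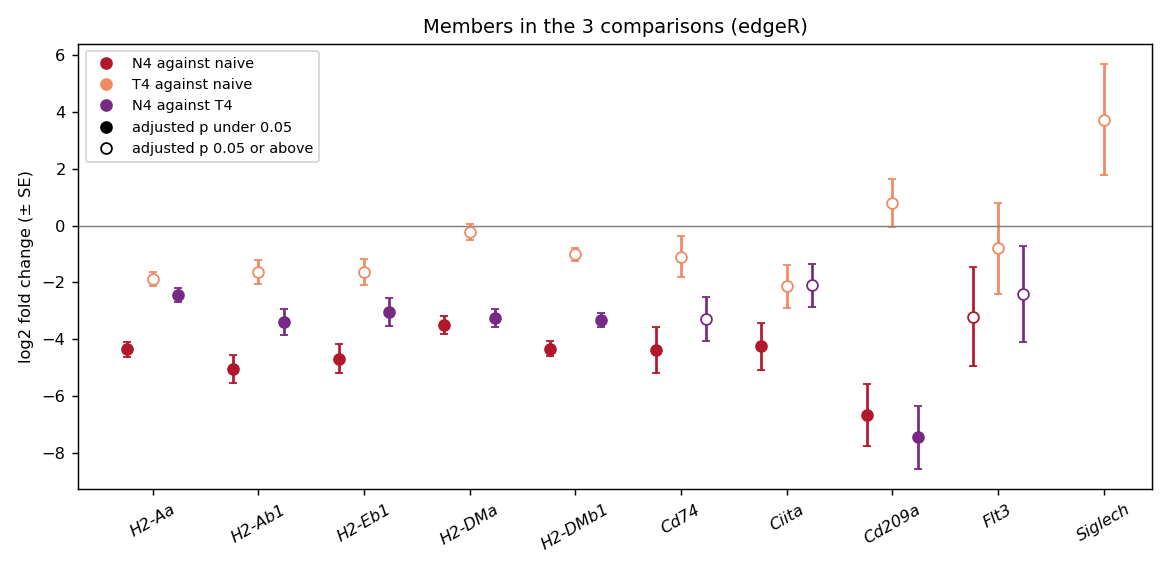
Log2 fold change of each of the 10 genes (points, with bars of 1 SE) in N4 against naive, T4 against naive and N4 against T4 cells, from the edgeR fit. Filled points passed the adjusted threshold, which were 8 of 10 for N4 against naive, 0 of 10 for T4 against naive and 6 of 10 for N4 against T4, and Siglech, at 0 in N4, is drawn for T4 against naive only.

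Of the dendritic cell genes, Cd209a alone passed the test, in both comparisons of N4 cells. Cd209a encodes a C-type lectin of the DC-SIGN family carried by monocyte-derived and some conventional dendritic cells in mice (chr8:3743397-3748984, minus strand). It had 0.439 and 0.0342 CPM in N4 cells, 38.4 and 44.8 CPM in T4 cells, and 23.9 and 24.3 CPM in naive cells. Every T4 library lay above every naive one, whereas the class II sum was lower in T4 than in naive cells, and every N4 library lay below both groups. Cd209a fell in N4 cells with log2 fold changes of -6.66 against naive cells (SE 1.08, edgeR adjusted p = 0.0193) and -7.45 against T4 cells (SE 1.12, edgeR adjusted p = 0.0261). The N4 libraries of Cd209a were themselves far apart: the values were -9.45 against naive and -10.24 against T4 cells without the first N4 library, and -5.78 and -6.57 without the second. The T4 mean was 172% of the naive mean, and that difference did not pass the test (log2 fold change 0.79, SE 0.84, edgeR adjusted p = 0.762).

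Flt3, the receptor for the cytokine that drives dendritic cell development (chr5:147330741-147400489, minus strand), had 0.489 and 0 CPM in N4 cells, 1.62 and 0.979 CPM in T4 cells, and 3.40 and 1.11 CPM in naive cells. Its T4 and naive ranges overlapped, and no comparison passed the test with all 6 libraries. The log2 fold change was -3.20 in N4 against naive cells (SE 1.75, edgeR adjusted p = 0.267), -0.79 in T4 against naive cells (SE 1.60, edgeR adjusted p = 0.891) and -2.41 in N4 against T4 cells (SE 1.69, edgeR adjusted p = 0.393). Each value moved with 1 library. Without the first N4 library, which holds all N4 counts of Flt3, N4 against naive cells passed (edgeR adjusted p = 0.0371), while without the second the values were -2.21 against naive and -1.42 against T4 cells. Without the first naive library N4 against naive cells gave -2.27 and T4 against naive cells 0.13, and without the second naive library the values were -3.80 and -1.39. Siglech, a lectin receptor of plasmacytoid dendritic cells (chr7:55768178-55778925, plus strand), had 0 and 0 CPM in N4 cells, 1.51 and 3.06 CPM in T4 cells, and 0.339 and 0 CPM in naive cells. With a floor of 3 counts per library, N4 was at least 12.0-fold lower than naive and at least 161.6-fold lower than T4 cells. The bound against naive cells rests on the first naive library alone, since the second was at 0 like both N4 libraries, and there is no fold without it. Neither difference passed the test, with an edgeR adjusted p of 0.158 against naive and 0.0845 against T4 cells. Against naive cells N4 passed without the second naive library (edgeR adjusted p = 0.0133), and against T4 cells without the first or the second (edgeR adjusted p = 0.00995 and 0.00879). T4 against naive cells gave 3.73 (SE 1.95, edgeR adjusted p = 0.471). The dendritic genes as a group stood at 0.928 and 0.0342 CPM in N4 cells, 41.6 and 48.8 CPM in T4 cells, and 27.7 and 25.5 CPM in naive cells.

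N4 cells were also set against T4 cells directly. In N4 against T4 cells, 6 of the 10 genes fell (H2-Aa, H2-Ab1, H2-Eb1, H2-DMa, H2-DMb1 and Cd209a), where 4.47% of all genes fell, with a median log2 fold change of -3.26 against -0.20 for all genes. This count rested on having all libraries of the pair, and fewer members passed when a library of the pair was left out. Far fewer genes of the whole table passed in those fits too, where a group held a single library. The log2 fold changes of the 10 genes stayed negative in them. In T4 against naive cells DESeq2 called 4 of the 10 genes (H2-Aa, H2-Ab1, H2-Eb1 and H2-DMb1, all lower in T4), beside 1997 of 21219 genes. By edgeR 0 of the 10 passed there, with 5 under an unadjusted p of 0.05, and 0.117% of all genes passed in either direction. The median log2 fold change was -1.05 against 0.00 for all genes. N4 and T4 were set against the same naive libraries, so these comparisons are not independent.

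Counted by library, 9 of the 10 genes were lower in both N4 than in both naive libraries, with Siglech the exception, where 28.9% of all genes showed that order. In T4 against naive cells, 6 of 10 genes were lower in every library after TMM scaling (22.6% of all genes). Of these, H2-DMa, H2-DMb1 and Ciita overlapped in TPM. Cd209a and Siglech were higher in every library (26.2% of all genes), and Cd74 and Flt3 overlapped. In N4 against T4 cells all 10 were lower in every library, as were 37.6% of all genes. With 2 libraries against 2, an exact permutation test of a single gene cannot give a p below 0.333.

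Per length, in TPM (counts divided by transcript length and scaled to a common total, before TMM), the order of the members was much the same in the 3 groups. In N4 cells it ran H2-Aa (17.8 ± 1.02 TPM), H2-Ab1 (10.4 ± 7.01), Cd74 (7.24 ± 5.74), H2-DMa (6.31 ± 2.90), H2-DMb1 (1.86 ± 0.334), H2-Eb1 (1.58 ± 0.892), Cd209a (0.108 ± 0.136), Flt3 (0.0428 ± 0.0605), Ciita (0.0407 ± 0.0244) and Siglech at 0 (SD, n = 2 each). In T4 cells it ran H2-Ab1 (208.7 ± 11.0 TPM), H2-Aa (196.8 ± 4.56), Cd74 (131 ± 29.8), H2-DMa (91.3 ± 1.90), H2-DMb1 (37.0 ± 8.34), Cd209a (35.9 ± 1.94), H2-Eb1 (29.7 ± 1.29), Siglech (1.66 ± 0.0736), Flt3 (0.436 ± 0.179) and Ciita (0.356 ± 0.137). In naive cells it ran H2-Aa (578 ± 301 TPM), H2-Ab1 (526 ± 372), Cd74 (243 ± 258), H2-DMa (84.3 ± 30.8), H2-Eb1 (74.8 ± 59.8), H2-DMb1 (56.1 ± 20.1), Cd209a (15.7 ± 6.56), Ciita (0.949 ± 0.880), Flt3 (0.668 ± 0.670) and Siglech (0.182 ± 0.258). Several neighbours in these orders did not differ beyond their spread. In N4 cells the libraries of H2-Ab1, Cd74 and H2-DMa overlapped, as did those of H2-DMb1 with H2-Eb1 and of Flt3 with Ciita. In T4 cells Cd209a lay within the range of H2-DMb1, and the ranges of Flt3 and Ciita overlapped. In naive cells the 4 genes at the head of the order overlapped with at least 1 neighbour each, and Cd209a lay below every class II gene except Ciita in both libraries.

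Ratios between members, also per length, differed between groups to unlike extents. H2-Eb1 over H2-Ab1 was 0.144 and 0.175 in N4 cells, 0.141 and 0.143 in T4 cells, and 0.148 and 0.124 in naive cells, so the beta chains kept nearly the same proportion over a wide range of levels. Cd209a over H2-Ab1 was 0.0134 and 0.00222 in N4 cells, 0.160 and 0.186 in T4 cells, and 0.0258 and 0.0421 in naive cells. T4 cells thus held more Cd209a per unit of H2-Ab1 than either other group. H2-DMa over H2-DMb1 was 3.99 and 2.62 in N4 cells, 2.09 and 2.97 in T4 cells, and 1.51 and 1.49 in naive cells, with N4 and T4 overlapping and both above naive. H2-Aa over H2-Ab1 was 1.21 and 3.16 in N4 cells, 0.924 and 0.964 in T4 cells, and 1.00 and 1.39 in naive cells. These ratios were not tested.

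The deposited transcript estimates were used to ask which forms of the members were counted. The long form of the invariant chain, Cd74-202 (279 codons in 9 exons, known as p41), took 10.9% and 1.11% of Cd74 counts in N4 cells, 14.7% and 17.7% in T4 cells, and 44.2% and 22.6% in naive cells. The short form, Cd74-201 (215 codons in 8 exons, known as p31), took 88.9% and 98.4% in N4 cells, 84.9% and 81.9% in T4 cells, and 55.8% and 77.1% in naive cells. The short form was thus the main one in every library, and the share of the long form was highest in the naive libraries, with all T4 values above all N4 values and below all naive ones. H2-DMa-201, which starts at the promoter window shown, took 11.1% and 14.9% of H2-DMa counts in N4 cells, 61.9% and 61.7% in T4 cells, and 68.0% and 42.9% in naive cells. H2-DMa-205, with a later start and the same 261 codons, took 78.8% and 64.8% in N4 cells, 35.3% and 35.0% in T4 cells, and 28.6% and 53.7% in naive cells, so the later start was the main form in N4 cells and in the second naive library.

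**Figure D4:**
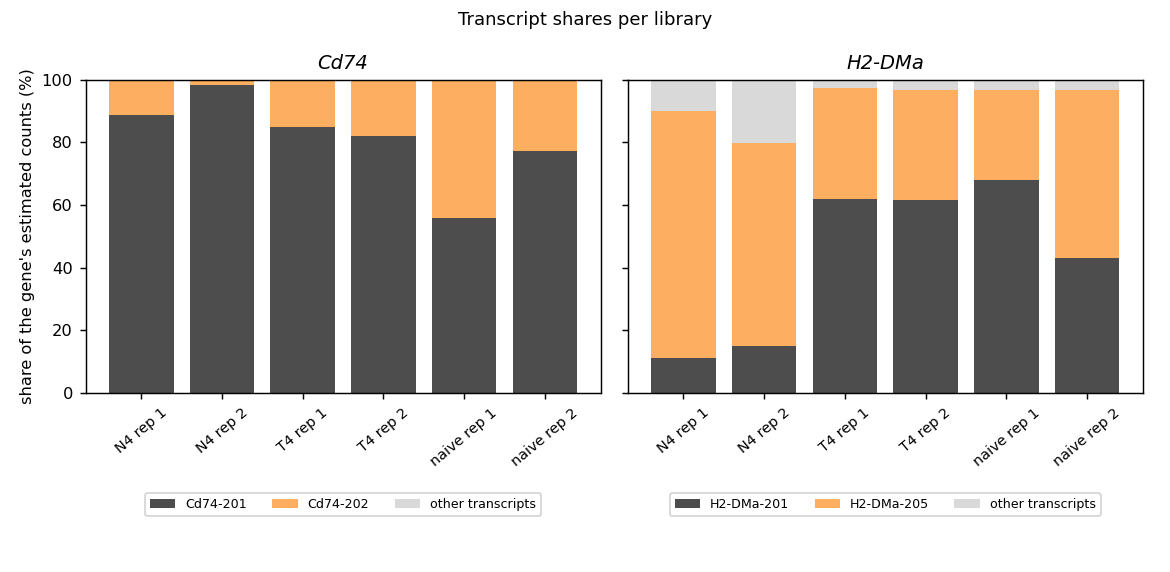
Share of the estimated counts of Cd74 and H2-DMa (%, y axis) taken by their 2 main transcript models in every library of N4, T4 and naive cells. Cd74-202 lies between 1.11% and 10.9% in N4 cells, 14.7% and 17.7% in T4 cells, and 22.6% and 44.2% in naive cells.

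H2-Eb1-203 (264 codons) took 98.7% and 97.9% of H2-Eb1 counts in N4 cells, 77.9% and 58.8% in T4 cells, and 84.1% and 43.3% in naive cells. H2-Eb1-205, annotated as a target of nonsense-mediated decay, took 0% and 0% in N4 cells, 9.62% and 33.1% in T4 cells, and 12.6% and 18.0% in naive cells. Both N4 libraries lay above the others in H2-Eb1-203 and had none of H2-Eb1-205, while the T4 and naive ranges of both forms overlapped. A further coding model, H2-Eb1-201 (287 codons), took 0% and 0% in N4 cells, 3.08% and 2.92% in T4 cells, and 0.130% and 36.9% in naive cells. The low share of H2-Eb1-203 in the second naive library thus went with H2-Eb1-201 more than with H2-Eb1-205. H2-Aa-201 took at least 96.9% and H2-DMb1-201 at least 99.46% of their genes' counts in every library. All 108 counts of Flt3 in the first N4 library lay in the noncoding model Flt3-202, and the coding model Flt3-201 had 0 and 0 counts in N4 cells, 656 and 379 in T4 cells, and 1488 and 278 in naive cells.

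Ciita is transcribed from several promoters that differ in use between cell types, and its models fell into 3 clusters of starts. The most upstream cluster had 0 and 0 counts in N4 cells, 74 and 150 in T4 cells, and 782 and 168 in naive cells. A cluster 8119 bases downstream had 45 and 0 counts in N4 cells, 218 and 80 in T4 cells, and 1717 and 24 in naive cells, and one 9687 bases downstream had 0 and 37 in N4 cells, 35 and 97 in T4 cells, and 128 and 132 in naive cells. The first naive library drew 65.4% of its Ciita counts from the middle cluster and the second 7.41%, while T4 drew 66.7% and 24.5%. The replicates disagreed on the leading cluster, so no order of the groups was read from these starts.

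Other genes of the class II pathway were examined as a list of 18, of which 17 passed the filter on low counts. In N4 against naive cells 9 fell and 1 rose (of all genes 7.18% fell and 4.87% rose). In N4 against T4 cells 5 fell and 1 rose (4.47% and 3.48% of all genes). In T4 against naive cells 0 passed edgeR's test, with 3 under an unadjusted p of 0.05. DESeq2 called 3 there, beside 1997 of 21219 genes. Median log2 fold changes over the 17 were -1.63, -1.41 and -0.19 in that order, against -0.09, -0.20 and 0.00 for all genes. Ctss, the protease that trims the invariant chain, averaged 42.7 ± 15.9 CPM in N4 cells, 110.3 ± 4.34 CPM in T4 and 305.6 ± 65.8 CPM in naive cells (SD, n = 2 each). Ctss fell in N4 against naive cells with a log2 fold change of -2.84 (SE 0.36, edgeR adjusted p = 0.0113). H2-Ob, a chain of the H2-O molecule that restrains H2-DM, averaged 1.74 ± 0.652 CPM in N4 cells, 28.0 ± 2.13 CPM in T4 and 43.1 ± 14.2 CPM in naive cells. It fell in N4 cells with log2 fold changes of -4.63 against naive cells (SE 0.43, edgeR adjusted p = 0.00777) and -4.01 against T4 cells (SE 0.41, edgeR adjusted p = 0.0156).

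Ifi30, a thiol reductase that unfolds antigens, averaged 9.45 ± 1.25 CPM in N4 cells, 28.6 ± 0.226 CPM in T4 and 29.2 ± 1.01 CPM in naive cells, and it fell in N4 cells with log2 fold changes of -1.63 against naive (SE 0.23, edgeR adjusted p = 0.0147) and -1.60 against T4 cells (SE 0.23, edgeR adjusted p = 0.0252). No listed gene for a factor that binds the class II promoter was called lower by edgeR, which does not show that none fell. Nfyb, a subunit of the Y box factor NF-Y with many other target genes, averaged 110.2 ± 15.6 CPM in N4 cells, 46.9 ± 1.25 CPM in T4 and 46.5 ± 9.48 CPM in naive cells. Nfyb rose in N4 cells with log2 fold changes of 1.25 against naive (SE 0.26, edgeR adjusted p = 0.0336) and 1.23 against T4 cells (SE 0.26, edgeR adjusted p = 0.0437). Rfxank and Rfxap, subunits of the X box factor RFX, passed in no comparison by edgeR. Rfxank stood at 54.6 ± 7.50 CPM in N4 cells, 53.7 ± 0.273 CPM in T4 and 68.2 ± 5.47 CPM in naive cells. Rfxap stood at 7.20 ± 3.11 CPM in N4 cells, 19.9 ± 1.31 CPM in T4 and 13.7 ± 5.86 CPM in naive cells. In N4 against T4 cells Rfxap had a log2 fold change of -1.47 (SE 0.44, edgeR adjusted p = 0.0877). Nfya gave -1.41 there (SE 0.52, edgeR adjusted p = 0.141), Rfx5 -0.31, Nfyc -0.13 and Creb1 0.68. These genes, named after their values were seen, passed in no comparison by edgeR either. Also lower in N4 than in naive cells were Ctsl, Lgmn, H2-DMb2, H2-Oa, H2-Eb2 and Marchf1, and in N4 against T4 cells H2-DMb2, H2-Oa and H2-Eb2, named here after their values were seen. H2-DMb2 stood at 1.04 and 0.816 CPM in N4 cells, 12.9 and 10.3 CPM in T4 cells, and 12.2 and 14.2 CPM in naive cells.

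Class I presentation genes, which every T cell uses, were examined beside them. Of 9 genes, 0 passed in N4 against naive cells and 0 in T4 against naive cells by edgeR, with 2 under an unadjusted p of 0.05 in each. DESeq2 called 2 and 1, beside 6186 of 22111 and 1997 of 21219 genes. In N4 against T4 cells 1 of the 9 fell by edgeR (4.47% of all genes fell), and 5 were under an unadjusted p of 0.05. DESeq2 called 4 lower and 1 higher there, beside 2999 lower and 2756 higher of 21665 genes. The median log2 fold change there was -0.83, against -0.20 for all genes. The gene called by edgeR, named after its values were seen, was H2-K1, the class I heavy chain that presents the ovalbumin peptide, at 321 and 227 CPM in N4 cells, 857 and 768 CPM in T4 cells, and 889 and 552 CPM in naive cells (log2 fold change -1.57, SE 0.34, edgeR adjusted p = 0.0477 between N4 and T4 cells). B2m, the light chain of class I molecules, averaged 13577 ± 3532 CPM in N4 cells, 6240 ± 516 CPM in T4 and 10461 ± 5456 CPM in naive cells, and did not pass in any comparison. H2-D1, another heavy chain, averaged 439 ± 171 CPM in N4 cells, 1141 ± 156 CPM in T4 and 1069 ± 473 CPM in naive cells and did not pass either. The immunoproteasome subunit Psmb8 averaged 802 ± 11.1 CPM in N4 cells, 1043 ± 12.7 CPM in T4 and 1067 ± 195 CPM in naive cells, and Psmb9 averaged 749.6 ± 114 CPM in N4 cells, 665 ± 56.7 CPM in T4 and 567 ± 252 CPM in naive cells, neither passing the test.

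A list of 24 genes used as marks of dendritic cell subsets did not move as a block. In N4 against naive cells 8 fell and 0 rose by edgeR (7.18% and 4.87% of all genes). In N4 against T4 cells 4 fell and 1 rose (4.47% and 3.48% of all genes). In T4 against naive cells 0 passed by edgeR, with 7 under an unadjusted p of 0.05. DESeq2 called 7 there, beside 1997 of 21219 genes. Its median log2 fold changes were -2.47, -0.55 and -0.50 in that order, against -0.09, -0.20 and 0.00 for all genes. Genes of conventional dendritic cells were among those that fell in N4 against naive cells. Naaa, expressed by type 1 conventional dendritic cells, averaged 1.12 ± 0.286 CPM in N4 cells, 3.74 ± 0.120 CPM in T4 and 16.6 ± 9.21 CPM in naive cells (log2 fold change -3.89, SE 0.50, edgeR adjusted p = 0.0119 between N4 and naive cells). Pacsin1, expressed by plasmacytoid dendritic cells, averaged 0.805 ± 0.229 CPM in N4 cells, 3.82 ± 0.127 CPM in T4 and 6.48 ± 5.28 CPM in naive cells (log2 fold change -3.01, SE 0.67, edgeR adjusted p = 0.0406 between N4 and naive cells). Cd209d, a relative of Cd209a named after its values were seen, had 0 and 0 CPM in N4 cells, 4.89 and 6.13 CPM in T4 cells, and 3.09 and 1.07 CPM in naive cells. Like Cd209a it was higher in every T4 than in every naive library, and with a floor of 3 counts per library it was at least 147-fold lower in N4 than in naive cells.

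Several genes of the list are also used by activated T cells. Batf3, a transcription factor of type 1 conventional dendritic cells and of activated T cells, averaged 17.1 ± 4.16 CPM in N4 cells, 4.05 ± 0.443 CPM in T4 and 7.45 ± 3.06 CPM in naive cells, and rose in N4 against T4 cells with a log2 fold change of 2.07 (SE 0.39, edgeR adjusted p = 0.0356). Bst2 averaged 476 ± 108 CPM in N4 cells, 284 ± 25.3 CPM in T4 and 368 ± 197 CPM in naive cells, Irf8 13.5 ± 14.3 CPM in N4 cells, 18.9 ± 3.70 CPM in T4 and 24.5 ± 13.9 CPM in naive cells, and Tcf4 2.62 ± 0.611 CPM in N4 cells, 5.07 ± 0.283 CPM in T4 and 4.00 ± 1.30 CPM in naive cells. These 3 genes passed in no comparison. Other genes of conventional dendritic cells, named after their values were seen, did not all go one way. In N4 against naive cells, Sirpa (log2 fold change -8.29, edgeR adjusted p = 0.0162), Clec9a (-3.98, edgeR adjusted p = 0.0305) and Xcr1 (-2.38, edgeR adjusted p = 0.0356) fell, and so did Clec10a, at least 62.0-fold lower by the floor of 3 counts (edgeR adjusted p = 0.0112). Zbtb46 stood at 1.13 ± 0.0195 CPM in N4 cells, 1.08 ± 0.143 CPM in T4 and 1.09 ± 0.322 CPM in naive cells, and Itgax at 3.88 ± 0.231 CPM in N4 cells, 1.94 ± 0.0391 CPM in T4 and 2.72 ± 0.0938 CPM in naive cells. Zbtb46 and Itgax passed in no comparison, and Clec10a, Mgl2, Cd209d and Klk1 were at 0 in both N4 libraries.

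Other cells that make class II molecules had markers that moved with these genes. Beside the counts in these lists stand the shares of all genes called by edgeR. In N4 against naive cells 7.18% fell, and in N4 against T4 cells 4.47% fell and 3.48% rose. In T4 against naive cells 0.117% passed in either direction. DESeq2 called 1997 of 21219 genes in T4 against naive cells. In N4 against T4 cells it called 2756 of 21665 higher and 2999 lower. A list of 11 B cell genes, 10 of them tested, summed to 4.24 and 3.62 CPM in N4 cells, 60.4 and 60.2 CPM in T4 cells, and 27.9 and 90.7 CPM in naive cells. Of the 10, 7 fell in N4 against naive, 6 fell in N4 against T4, and 0 passed in T4 against naive cells by edgeR (1 under an unadjusted p of 0.05 and 1 by DESeq2). Pax5, Cr2, Fcer2a, Blk and Fcrla were at 0 in both N4 libraries. A list of 12 macrophage and monocyte genes summed to 20.6 and 16.9 CPM in N4 cells, 270.0 and 257 CPM in T4 cells, and 2266 and 2669 CPM in naive cells. Of these 12, 10 fell in N4 against naive, 4 fell in N4 against T4, and 0 passed in T4 against naive cells by edgeR (10 under an unadjusted p of 0.05 and 10 by DESeq2), and Adgre1, Spic and Mertk were at 0 in both N4 libraries. Of the 8 neutrophil genes, 7 fell in N4 against naive and 0 passed in T4 against naive cells by edgeR (8 under an unadjusted p of 0.05 and 8 by DESeq2), and Ltf and Cxcr2 were at 0 in both N4 libraries. In N4 against T4 cells 1 neutrophil gene fell by edgeR (Cxcr2, named after its values were seen), 4 of 8 were under an unadjusted p of 0.05, and DESeq2 called 3 higher and 1 lower. The median log2 fold change of that list was 1.92 (1.75 with genes at 0 in N4 cells placed at their bound), and 2 of the 8 genes had a negative value. The part of these cells in the class II result was not tested. In bulk RNA, fewer cells of a type and less RNA per cell cannot be told apart.

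**Figure D5:**
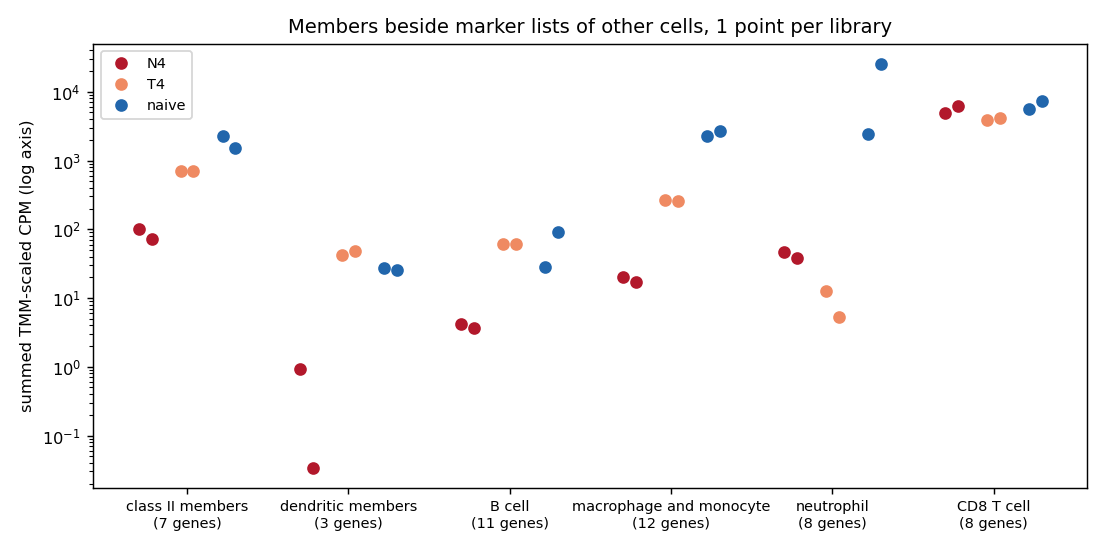
Summed level of the class II genes, the dendritic genes and 4 marker lists in every library (TMM-scaled CPM, log axis) for N4, T4 and naive cells. Class II, dendritic, B cell and macrophage sums are lowest in the 2 N4 libraries, while CD8 T cell sums lie between 3922 and 7428 CPM in all 6.

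The ratio of class II genes to each marker list differed between groups. Class II genes over B cell markers were 23.5 and 20.1 in N4 cells, 11.8 and 11.5 in T4 cells, and 82.1 and 17.0 in naive cells. Over macrophage and monocyte markers the ratios were 4.85 and 4.31 in N4 cells, 2.63 and 2.70 in T4 cells, and 1.01 and 0.577 in naive cells. Class II and B cell sums were thus in unlike proportion in the naive libraries, the one with the lower B cell sum having the higher class II sum. Over CD8 T cell markers the ratios were 0.0204 and 0.0116 in N4 cells, 0.181 and 0.164 in T4 cells, and 0.402 and 0.207 in naive cells, the same order of the groups as the class II level itself.

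The genes whose levels followed the mean log2 CPM of H2-Aa, H2-Ab1, H2-Eb1 and Cd74 most closely over the 6 libraries were Fam117a (Pearson r = 0.998), Cnbd2 (0.997), Agpat1 (0.994), Lat (0.994), Snap23 (0.993), Cd68 (0.992), Fxyd5 (0.991) and Ttc14 (0.991). These correlations describe 3 groups of 2 libraries that share depth and scaling, and carry no p. Of 6006 genes compared, 447 (7.44%) had an r above 0.9, so a close match to this profile was not rare. Fam117a, the nearest, spanned a much smaller range than the class II genes, at 11.9 and 10.3 CPM in N4 cells, 28.7 and 25.8 CPM in T4 cells, and 49.0 and 37.2 CPM in naive cells.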

How the data were processed

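Poly(A) RNA of OT-I CD8+ T cells was measured in 6 libraries, made with an ultra-low input kit that does not mark strand, per the labels' protocols. The authors deposited estimated counts per gene and per transcript, as whole numbers and not normalized, so that no rounding was needed. The submitters' processing notes name STAR 2.7.1a, SAMtools 1.9, StringTie 2.1.0, R 4.0.5, DESeq2 1.30.1 and the build mm39, with no role given. The sources used here give no annotation release, sorting gate or read depth, so totals are not taken as reads, and floors of 3 counts cover counting error only.

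Symbols were matched for 52081 of 55414 genes. Gene models and coordinates are GENCODE M21 and promoters RefSeq, both on GRCm38, a different build from mm39, and coordinates were not converted. H2-Ea and Marchf1 were matched under the symbols H2-Ea-ps and March1.

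The gene test was edgeR's quasi-likelihood test (edgeR 4.0.16, with limma 3.58.1 and R 4.3.3) of group means in 1 model of the 6 libraries. Counts were scaled by TMM, filterByExpr kept 23003 genes, p-values were adjusted by Benjamini-Hochberg over those, and the threshold was 0.05. The biological coefficient of variation common to all genes was 0.669. SEs are the log2 fold change over the square root of F. The fit was tested on simulated data. TPM used transcript counts per model length. Alternatives were library-size or DESeq2 scaling, DESeq2 1.42.0, no filter, only the groups compared, the replicate number as a block, each library left out, and transcript shares per length.

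The members and lists were chosen with earlier results of these data known, and the motif letters after the windows were seen. Named genes are all members, the 6 genes of highest mean CPM in the class II and dendritic lists, 4 in the class I list, and the 8 genes of highest correlation with the class II profile at a mean log2 CPM of at least 3. Other genes named, apart from list members at 0, were chosen after their values were seen.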

Additional observations from a re-analysis of the deposited data

How the results depend on the processing

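Over the alternatives run, 303 of the fold changes of single members kept their direction and their side of the threshold, 26 moved past it, 26 no longer passed it and 3 changed direction, all in T4 against naive cells: H2-DMa with library-size scaling (0.065), and Cd74 and Flt3 when 1 library was left out (-1.75 to 0.0699 for Cd74 and -1.389 to 0.132 for Flt3, the upper values without the first naive library). Siglech in N4 against naive cells has no value without the first naive library, since all remaining counts are 0. For T4 against naive cells, 3 members, 2 pathway genes and 5 dendritic genes passed with no filter on low counts, beside 956 of 34879 genes. By DESeq2 the counts were 4, 3 and 7, beside 1997 of 21219 genes. For N4 against T4 cells, 10 dendritic genes passed with no filter, beside 3834 of 34879 genes. By DESeq2 10 pathway and 11 dendritic genes passed, beside 5755 of 21665 genes. For N4 against naive cells, the dendritic count was 5 with only the compared groups fitted, where 1044 of 20697 genes passed. It was 14 by DESeq2, where 6186 of 22111 genes passed. Leaving out 1 library at a time, N4 against naive cells had 6 to 9 members, 3 to 11 pathway genes and 3 to 9 dendritic genes called. T4 against naive cells had 0 to 1 members, 0 pathway genes and 0 to 3 dendritic genes called, and N4 against T4 cells 0 to 9 members, 0 to 8 pathway genes and 0 to 8 dendritic genes. The number of all genes called moved in these fits too, down in some and up in others, in each comparison. These ranges therefore cannot separate a change in the listed genes from a change in calls over all genes. A group left with 1 library is assumed to vary like the others. With the replicate number as a block, 8, 1 and 7 members passed, and 3620, 130 and 3367 of all genes against 2772, 27 and 1830 without it. Over all genes tested, same-numbered libraries did not deviate together (r between 0.0174 and 0.0798). The labels do not say whether they are paired, and a correlation over all genes cannot decide it. Library-size scaling put the all-gene median, on the log2 scale, at -0.65 (N4 against naive), 0.30 (T4 against naive) and -1.05 (N4 against T4). The cause of these shifts was not tested. Levels under the floor of 3 counts (0.0136 and 0.0147 CPM in the N4 libraries) could not be detected.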
